A study of Mus musculus with 6 samples.

Results

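The genes described here encode the parts of the motile axoneme, the microtubule core of a beating cilium, and the factors that switch those genes on. They were found by symbol among probe sets with 1 gene name: dynein arm heavy, intermediate and light chains, dynein assembly factors, tektins, radial spoke heads, dynein regulatory complex and cilia and flagella associated proteins (Dnah, Dnai, Dnaic, Dnal, Dnali, Dnaaf, Tekt, Rsph, Drc and Cfap with a number), and Foxj1, Rfx2, Rfx3, Pifo, Spag6, Spag16, Spag17, Hydin, Ccdc39 and Ccdc40. The array held 115 such probe sets for 68 genes, of 34945 probe sets for 18193 genes in all. Another 3 probe sets carried such a name beside other genes and were left out.

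The study sorted cells of embryonic day 8.5 mouse embryos (median somite number 6) that were heterozygous for Noto-GFP, a reporter of the node and notochord homeobox gene Noto, on a mixed 129S3;ICR background and of both sexes. The GFP-positive group is 3 arrays of cells sorted for the reporter, about 2600, 4300 and 6600 cells from pools 1, 2 and 3. The GFP-negative group is 3 arrays of the cells without the reporter from the same dissected posterior tissue, so all embryos of both groups came from reporter litters and each pool (23, 39 and 52 embryos) gave 1 array of each kind. RNA was amplified before labeling, and each value is the deposited intensity of 1 colour.

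Cilia of the mouse node beat and drive a leftward flow of fluid that sets the left-right axis. In a motile axoneme, outer and inner dynein arms on the microtubule doublets generate the beat, and nexin links, radial spokes and a central pair of microtubules shape it. Cilia of node pit cells mostly lack the central pair. Foxj1 is the forkhead factor that drives genes of motile cilia, and RFX factors bind X-box sequences in the promoters of ciliary genes.

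Node and notochord genes marked the sort. Of 9 such genes listed, 7 were tested and 6 of these were higher in GFP-positive cells, against 2.60% of all genes. The summed intensity of the 7 was 7508 to 10311 on GFP-positive arrays and 221 to 621 on GFP-negative arrays. Shh alone gave 4660 to 5774 of the GFP-positive sums and 47.0 to 418 of the GFP-negative sums. Noto itself was not analysed here. Both arrays of pool 1 stood apart in RNA quality, with Gapdh 3′ over 5′ signal ratios of 14.0 (GFP-positive) and 15.4 (GFP-negative) against 1.60 to 2.22 on the other 4 arrays. The 40th percentile of all intensities lay between 11.7 and 18.4 by array, and values near or under it may be background.

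Axoneme genes that changed were all higher in GFP-positive cells, and 5 of the 9 fell in the group of tektins, doublet microtubule proteins and Pifo. Of the 68 genes, 45 had a probe set bright enough to be tested, that is at or above the 40th percentile on at least 3 of 6 arrays. In limma, with Benjamini-Hochberg adjustment over 12628 genes, 9 of the 45 were higher (20.0%), 0 were lower and 36 did not pass at an adjusted p of 0.05; at an unadjusted p under 0.05, 16 were higher and 1 lower. Over all 12628 genes 2.60% were higher and 1.41% lower after adjustment. At an unadjusted p under 0.05, 1520 of them were higher and 1221 lower. With the pool fitted as a block, 13 of the 45 were higher (28.9%) and 0 lower, against 8.40% and 6.76% of all genes. The filter bears on these shares: by each array's own percentile, 7 of the 45 genes were bright enough only on the 3 GFP-positive arrays. For those the filter largely set that the groups differed. They are Cfap52, Pifo, Cfap54, Cfap65 and Cfap299 of the 9, and Foxj1 and Dnah6. With no filter all 68 genes were tested, and 5 were higher (7.35%) and 0 lower, against 1.24% and 0.506% of all genes. The median log2 fold change of the 68 was then 0.13, beside -0.04 for all genes. In these bulk samples, fewer cells of a type and less RNA per cell cannot be told apart.

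**Figure D1:**
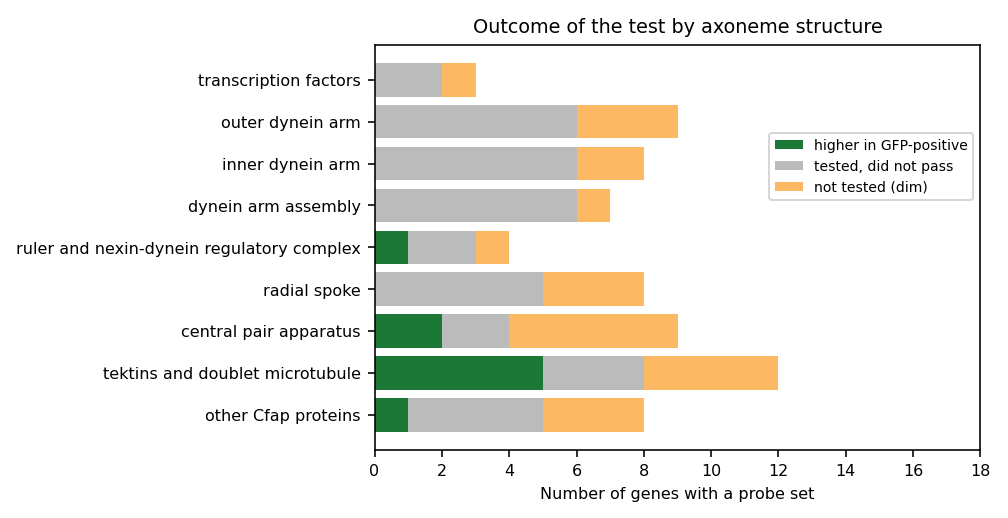
Number of axoneme genes (x axis) by structure (y axis), divided into genes higher in GFP-positive cells, tested genes that did not pass, and genes too dim to be tested. The tektin and doublet microtubule row holds 5 of the 9 higher genes, and the dynein rows hold none. Only genes of the symbol rule are counted.

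The promoters of 4 of the genes that rose are shown because Foxj1 and RFX factors are the known regulators of such genes; the 4 genes and the motifs were picked after the values were seen. Windows run from 250 bases before to 50 after a gene start in RefSeq's annotation of GRCm38.p6, and 58 of the 68 genes had one. Capitals mark the RFX half-site GTTGCC on either strand (read as GGCAAC where it lies on the other strand). The forkhead core TGTTTAC, searched on both strands too, was in none of the 4 windows. The Tekt1 window (chr11:72361833-72362132, minus strand) held a pair of half-sites that start at positions -35 and -15 from the gene start, facing opposite ways. The Pifo window (chr3:106001448-106001747, minus strand) held 1, at -12, and the window of its other annotated start held none, nor did that of the other start of Tekt1. The windows of Cfap52 (chr11:67965593-67965892, minus strand) and Drc3 (chr11:60353130-60353429, plus strand) held no exact match to either string. Only exact copies of the 2 strings were searched. Other forms of the X-box were not, so a window without a match may still hold one.
Tekt1: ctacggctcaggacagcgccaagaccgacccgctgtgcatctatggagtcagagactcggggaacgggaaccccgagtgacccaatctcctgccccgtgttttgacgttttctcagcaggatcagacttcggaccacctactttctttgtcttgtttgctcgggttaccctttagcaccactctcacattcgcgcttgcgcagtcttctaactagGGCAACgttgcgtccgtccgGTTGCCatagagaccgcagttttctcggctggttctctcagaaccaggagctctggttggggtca
Pifo: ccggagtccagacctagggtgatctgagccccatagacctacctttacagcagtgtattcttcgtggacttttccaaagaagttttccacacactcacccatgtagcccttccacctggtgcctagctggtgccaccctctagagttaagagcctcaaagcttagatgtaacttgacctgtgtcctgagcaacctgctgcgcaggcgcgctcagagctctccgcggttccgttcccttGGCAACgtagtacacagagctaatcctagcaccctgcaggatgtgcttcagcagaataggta
Cfap52: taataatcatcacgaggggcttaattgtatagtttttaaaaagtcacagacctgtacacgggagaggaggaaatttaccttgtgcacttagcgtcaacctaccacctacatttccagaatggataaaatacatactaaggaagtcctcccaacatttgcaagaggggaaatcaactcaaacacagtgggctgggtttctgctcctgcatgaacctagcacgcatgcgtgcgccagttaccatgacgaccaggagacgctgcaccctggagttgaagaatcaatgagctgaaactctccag
Drc3: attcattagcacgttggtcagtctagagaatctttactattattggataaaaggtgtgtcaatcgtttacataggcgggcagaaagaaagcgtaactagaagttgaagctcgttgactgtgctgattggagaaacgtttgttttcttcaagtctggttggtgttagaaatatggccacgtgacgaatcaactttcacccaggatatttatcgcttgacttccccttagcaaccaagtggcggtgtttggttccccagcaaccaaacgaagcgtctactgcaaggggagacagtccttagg
Of all 65 windows of axoneme genes, 22 held GTTGCC (33.8%), against 12.5% of 32851 windows of all genes, and 4 held TGTTTAC (6.15%), against 3.65%. Genes with the half-site included Rfx3, Rfx2, Spag16, Hydin and Dnaaf2. Of the 6 higher genes with a window, 2 held it. A match is a stretch of letters, not a shown binding site.

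The transcription factors did not pass in limma (0 of 2 tested, with and without the block; 1, Foxj1, was higher at an unadjusted p under 0.05). Foxj1 had intensities of 36.1, 14.9 and 20.7 on GFP-positive arrays of pools 1, 2 and 3, and 2.23, 8.91 and 14.4 on GFP-negative arrays. Foxj1 was tested only through its GFP-positive arrays, so the filter largely set that its groups did not overlap, and the difference within pools was 0.99 in pool 1 and 0.20 and 0.18 in pools 2 and 3 on the log2 scale. Its log2 fold change was 0.46 ± 0.19 (SE, adjusted p = 0.202; 0.145 with the block). Rfx3 was bright in both groups, at 627, 222 and 219.7 in GFP-positive and 329, 280.1 and 225 in GFP-negative cells. The difference was 0.87 in pool 1, -0.30 in pool 2 and -0.03 in pool 3, and the log2 fold change was 0.18 ± 0.38 (adjusted p = 0.815). All 4 probe sets of Rfx2 were too dim to be tested.

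Outer arm dyneins, which power the beat, showed 0 calls in limma among 6 genes tested of 9, with and without the block, and log2 fold changes from -0.51 to 0.53. At an unadjusted p under 0.05, 0 were higher and 1, Dnaic2, lower. Armc4 and Ttc25, docking proteins of this arm outside the symbol rule, were higher. Both were bright enough only on GFP-positive arrays, and they are given below with the separate list, where 6 of 26 tested genes were higher. Dnah11, the left-right dynein heavy chain of the node, was at 15.1, 58.8 and 43.8 in GFP-positive and 18.8, 12.2 and 18.5 in GFP-negative cells. Its pools disagreed: the GFP-positive array was the lower of the pair in pool 1 and the higher in pools 2 and 3, by 1.04 and 0.59. The log2 fold change was 0.50 ± 0.24 (adjusted p = 0.269), and of the 20 alternatives it passed in 1, without pool 1. The light chain Dnal4 had 80.0, 142 and 139 in GFP-positive and 58.2, 82.1 and 75.1 in GFP-negative cells, with a log2 fold change of 0.53 ± 0.24 (adjusted p = 0.242). Dnaic2, an intermediate chain, ran the other way in all 3 pools, at 1.70, 5.48 and 14.4 against 9.76, 29.4 and 34.8 in GFP-negative cells (-0.51 ± 0.21, adjusted p = 0.203). The other intermediate chain, Dnaic1, lay near the 40th percentile in both groups (-0.07 ± 0.14). The probe set of Dnah5, the outer arm heavy chain often mutated in human ciliary dyskinesia, was too dim to be tested, at 13.5, 17.5 and 8.76 in GFP-positive and 19.4, 9.53 and 0.901 in GFP-negative cells.

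Inner arm genes, which set the waveform, had 6 of 8 tested and 0 called in limma, with 2 (Dnah1 and Dnah6) higher at an unadjusted p under 0.05. Dnah1, a heavy chain of the inner arm, was at 56.9, 43.7 and 61.9 in GFP-positive and 19.3, 16.5 and 34.9 in GFP-negative cells. The groups did not overlap and all pools ran the same way, by 0.79, 0.64 and 0.49. Its log2 fold change was 0.64 ± 0.19 (adjusted p = 0.105), and it passed once the pool was fitted as a block (0.0334). The heavy chain Dnah6 was at 43.9, 17.3 and 18.7 against 8.09, 9.23 and 3.45 in GFP-negative cells, and unlike Dnah1 it was bright enough only on GFP-positive arrays (0.57 ± 0.19, adjusted p = 0.138; 0.0625 with the block). Cfap43, which tethers an inner arm to the doublet, had -0.23 ± 0.16.

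Dynein arms are assembled in the cytoplasm by dedicated chaperone cofactors, and 0 of 6 tested genes of this kind passed in limma, with and without the block. All 6 had a positive log2 fold change, where 51.1% of all genes tested did. At an unadjusted p under 0.05, 1 of the 6, Cfap298, was higher, where 1520 of all 12628 genes were. Cfap298, an assembly factor, was at 365, 456 and 543 in GFP-positive and 365, 241 and 279.8 in GFP-negative cells. The pool 1 values were the same, and pools 2 and 3 differed by 0.84 and 0.88. Dnaaf2 showed the same split, with 542, 537 and 611 against 600.1, 325 and 310.4 in GFP-negative cells. Log2 fold changes were 0.57 ± 0.24 for Cfap298 (adjusted p = 0.214), 0.48 ± 0.27 for Dnaaf2 (adjusted p = 0.337) and 0.28 ± 0.16 for Dnaaf4. The other tested probe set of Dnaaf2 had the opposite sign, at -0.12. That of Cfap298 was higher in GFP-positive cells in all 3 pools, by 0.63, 0.65 and 0.81, with a log2 fold change of 0.69. In limma over probe sets, this Cfap298 probe set passed with the block (adjusted p = 0.0377) but not without it (0.372).

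Drc3, a subunit of the nexin-dynein regulatory complex that links neighbouring doublets, had the largest log2 fold change of the 45 tested genes. Its intensities were 291, 110.4 and 197 in GFP-positive and 32.9, 15.9 and 20.7 in GFP-negative cells. Every GFP-positive array was above every GFP-negative array, and the pools differed by 2.31, 1.57 and 2.12. The log2 fold change was 2.00 ± 0.31 (adjusted p = 0.0135), while its other tested probe set, much nearer background, had 0.18 and did not pass. Drc1, another subunit, had 0.28 ± 0.19 (adjusted p = 0.408), and Ccdc40, part of the ruler that spaces the arms, had -0.17 ± 0.19. The 3 probe sets of Ccdc39, the partner of Ccdc40 in the ruler, were too dim to be tested.

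Radial spoke genes of the symbol rule had 0 of 5 tested pass in limma. Of these, 2 spoke head genes, both higher at an unadjusted p under 0.05, passed with the pool as a block. The spoke proteins Dnajb13 and Nme5, outside the rule, were higher in the separate list given below. Rsph1 was at 51.4, 47.9 and 74.9 in GFP-positive and 8.15, 15.0 and 28.0 in GFP-negative cells. Rsph9 was at 63.4, 61.2 and 57.9 in GFP-positive and 13.4, 25.0 and 37.0 in GFP-negative cells. Neither gene's groups overlapped. Rsph1 had a log2 fold change of 0.88 ± 0.21 (adjusted p = 0.0553; 0.0115 with the block) and Rsph9 one of 0.72 ± 0.20 (adjusted p = 0.0836; 0.0352 with the block). Rsph4a, the third spoke head gene named here, was too dim to be tested, at 22.5, 9.67 and 20.0 against 12.9, 7.79 and 6.02 in GFP-negative cells. Cfap61, of the calmodulin and spoke complex, had the lowest log2 fold change of the 45, -0.77 ± 0.38 (adjusted p = 0.274). Its GFP-positive values were 18.2, 9.94 and 20.4, and its GFP-negative values spread over 15.6, 42.2 and 124, with pool 3 far above the rest.

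Central pair genes were mostly dim: 5 of 9 were not tested, among them Hydin, Spag6 and Spag17, whose products build the central apparatus. Both genes that rose here, Cfap54 and Cfap65, encode parts of its projections. Cfap54 had 60.2, 34.9 and 26.0 in GFP-positive and 7.07, 7.78 and 4.32 in GFP-negative cells. Cfap65 had 42.4, 24.1 and 39.6 in GFP-positive and 7.92, 6.80 and 4.20 in GFP-negative cells. For both, all GFP-negative values lay under the 40th percentile of their arrays, and both were tested only because the GFP-positive arrays were bright enough. Log2 fold changes were 0.89 ± 0.19 (adjusted p = 0.0441) and 0.80 ± 0.16 (adjusted p = 0.0323), and neither passed without the filter. Spag16 had 43.7, 44.8 and 41.0 in GFP-positive and 46.1, 18.2 and 22.3 in GFP-negative cells, where the pool 1 array stood with the GFP-positive ones (0.33 ± 0.20, adjusted p = 0.372). Cfap69 had 0.47 ± 0.29, resting on 1 bright GFP-positive array, 87.5 in pool 1 against 19.9 and 28.6 in pools 2 and 3.

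Tektins and doublet microtubule proteins, grouped here with Pifo, gave the most calls. Of 12 genes, 8 were tested, 5 were higher, 0 were lower and 3 did not pass, with a median log2 fold change of 0.93 beside 0.01 over all genes tested. With no filter, 4 of the 12 were higher and the median was 0.34, beside -0.04 over all genes. Tekt1 was the only tektin among the 5 higher genes. The other tested tektin, Tekt4, did not pass in limma (0.17 ± 0.16, adjusted p = 0.567). Cfap52, a protein inside the doublet lumen, had 150.0, 87.3 and 101 in GFP-positive and 8.89, 6.67 and 11.3 in GFP-negative cells. Pifo (Pitchfork), a protein of the ciliary base known from the mouse node, had 113, 60.0 and 124 in GFP-positive and 4.43, 5.43 and 9.90 in GFP-negative cells. For both genes the GFP-negative values were under the 40th percentile on every array, so the log2 scale with its offset of 32 understates the ratio. Their log2 fold changes were 1.80 ± 0.21 (adjusted p = 0.00409) and 1.73 ± 0.23 (adjusted p = 0.00741).

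Cfap126 (Flattop), which helps position basal bodies, had 157, 81.4 and 120.4 in GFP-positive and 10.1, 27.3 and 30.1 in GFP-negative cells. Pool 1 differed most, by 2.17, against 0.94 and 1.30 in pools 2 and 3, and the log2 fold change was 1.47 ± 0.25 (adjusted p = 0.0205). Tekt1, a filament protein of the doublet wall, had 53.7, 52.7 and 77.6 in GFP-positive and 12.5, 17.8 and 10.1 in GFP-negative cells. It rose by 1.03 ± 0.18 (adjusted p = 0.0201), with pool 1 between the others. Cfap45, another protein of the doublet lumen, had 44.9, 31.9 and 44.7 in GFP-positive and 17.5, 1.65 and 7.75 in GFP-negative cells, a rise of 0.84 ± 0.19 (adjusted p = 0.0478). That call lies close to the threshold and held in 9 of 20 alternative settings.

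**Figure D2:**
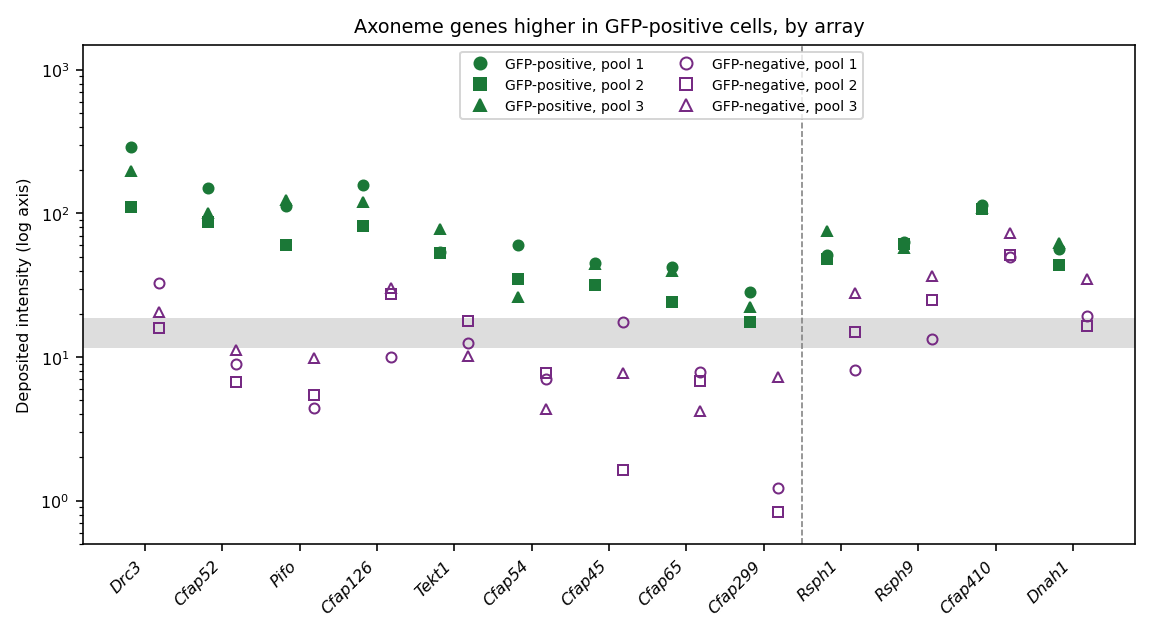
Deposited intensity (y axis, log scale) on each array for the 9 genes that passed (left of the dashed line) and the 4 that passed with the pool as a block (right), with GFP-positive arrays filled and GFP-negative arrays open; marker shape gives the pool and the grey band the range of the arrays' 40th percentiles, 11.7 to 18.4. No gene's GFP-positive and GFP-negative values overlap, and the GFP-negative values of Cfap52, Pifo, Cfap54, Cfap65 and Cfap299 lie under the band.

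Among the other Cfap proteins, 1 of 5 tested genes passed. Cfap299 had 28.4, 17.7 and 22.4 in GFP-positive and 1.22, 0.831 and 7.21 in GFP-negative cells (0.64 ± 0.14, adjusted p = 0.0481), close to the threshold, and it too was bright enough only on GFP-positive arrays. Cfap410, a ciliary protein, had 115, 107 and 109 in GFP-positive and 49.9, 51.6 and 73.2 in GFP-negative cells and passed only once the pool was fitted as a block (0.67 ± 0.20, adjusted p = 0.0987; 0.0366 with the block). Cfap36, which binds the ciliary GTPase Arl3, had 269, 199 and 200.3 against 252, 125 and 103 in GFP-negative cells (0.47 ± 0.31, adjusted p = 0.396).

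**Figure D3:**
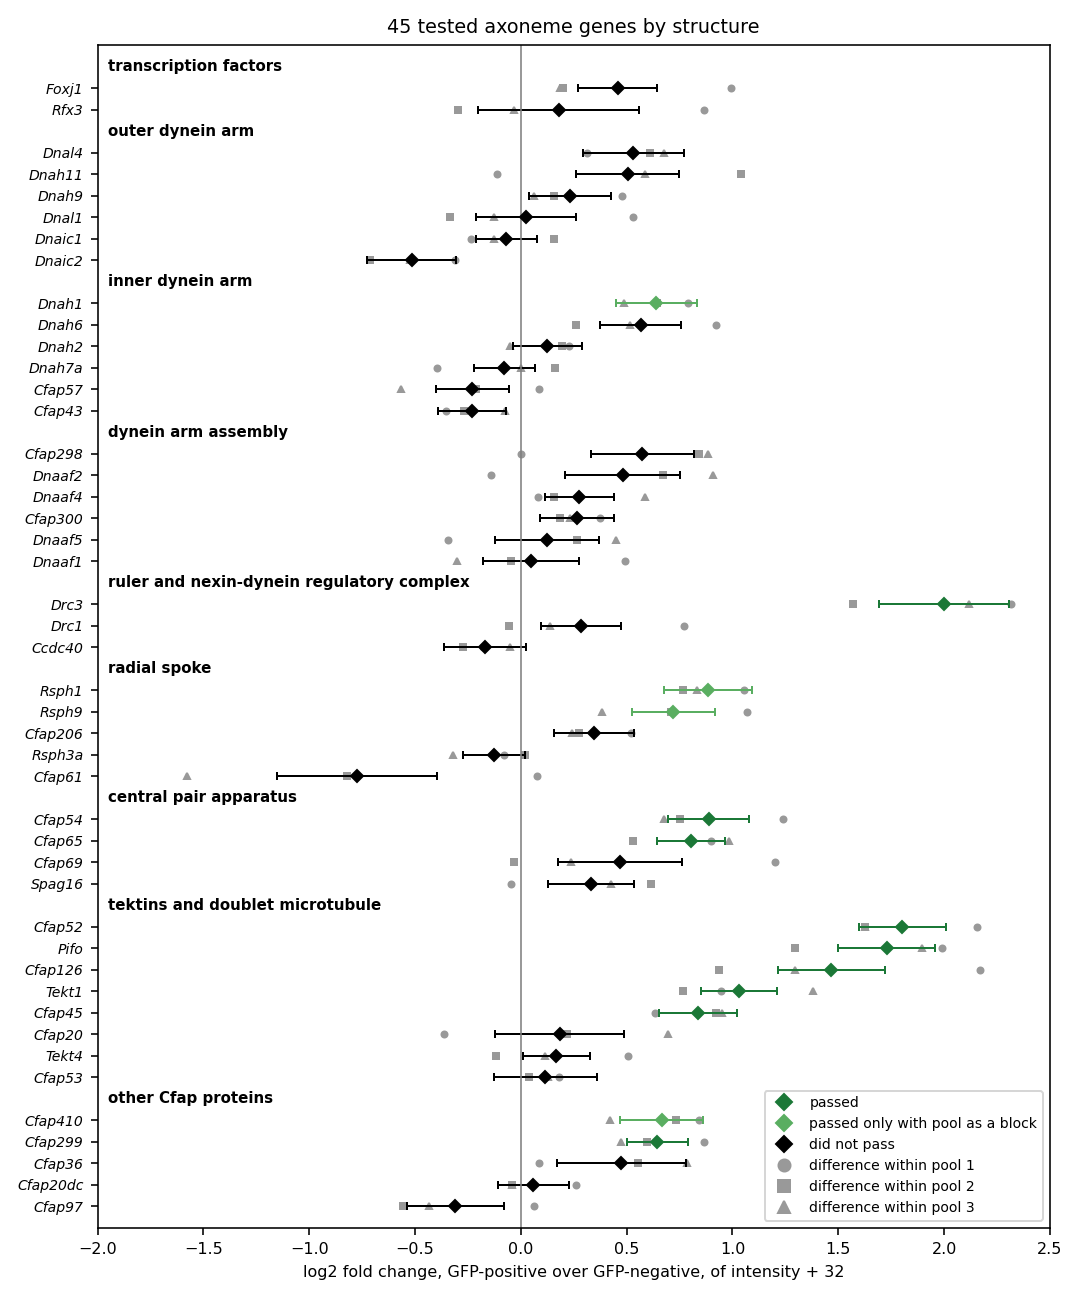
Log2 fold change of GFP-positive over GFP-negative intensity plus 32 (x axis) for the 45 tested axoneme genes, grouped by structure (y axis), with diamonds and bars for the estimate ± SE and grey marks for the difference within each pool. Drc3, Cfap52 and Pifo lie farthest to the right at 2.00, 1.80 and 1.73, and Cfap61 farthest to the left at -0.77.

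Across the 45 tested genes, 36 had a positive log2 fold change (80.0%, against 51.1% of all genes tested), and with no filter 46 of 68 did (67.6%, against 43.8%). Of the 45, 23 were higher in all 3 pools, and 3 were lower in all 3. Over all genes, 28.4% were higher in all 3 pools and 24.9% lower. GFP-positive values lay wholly above GFP-negative values for 18 of the 45 genes, where 15.6% of all genes did, and wholly below for 0, where 12.2% of all genes did. The 18 include the 7 genes that were bright enough only on GFP-positive arrays, whose separation the filter largely set. Among the other 38 the count was 11, against 14.6% of all genes bright beyond a single group's arrays. With no filter, 20 of 68 lay wholly above and 3 wholly below, against 11.7% and 12.9% of all genes. The median difference of the 45 genes was 0.48 in pool 1, 0.22 in pool 2 and 0.38 in pool 3, and pool 1 gave the largest of the 3 differences for 28 genes. These medians and this count were not taken over all genes, so they cannot be read as particular to axoneme genes. For the 9 genes that rose, the smallest difference within a pool was 0.64, 0.53 and 0.47 in pools 1, 2 and 3.

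The calls depended on the pools. Without pool 1, 18 of the 45 genes were higher and 3 lower (Cfap61, Dnaic2 and Cfap97), against 19.3% and 17.1% of all genes. All 9 genes that rose were among the 18, with Drc3 at 1.84, Cfap52 at 1.63 and Pifo at 1.60. The others were Rsph1, Rsph9, Cfap410, Cfap36, Dnal4, Dnah11, Cfap298, Dnaaf2 and Spag16, the last 5 with adjusted p of 0.0141, 0.00963, 0.00375, 0.00358 and 0.0387 in limma. Without pool 2 or pool 3, 0 axoneme genes passed in limma (11 and 15 higher at an unadjusted p under 0.05), and only 5 and 32 of all genes were higher (0.0396% and 0.253%). Of single arrays, leaving out GFP-negative array 2 left 1 axoneme gene, Cfap52, and leaving out GFP-positive array 3 or GFP-negative array 3 left 2, Cfap52 and Pifo. The count was 5 when GFP-positive array 1 was dropped (Drc3, Cfap52, Pifo, Cfap126 and Tekt1) and 4 when array 2 of that group was dropped (the same without Tekt1). Over all genes the count of higher genes fell too, from 328 to 295 without GFP-positive array 1 and to 94 without GFP-positive array 2. Counts over all genes are not given here for the fits without GFP-positive array 3 or without a GFP-negative array. Unadjusted counts over all genes without pool 2 or pool 3 are not given either. The axoneme counts of those fits therefore stand without a background. Without GFP-negative array 1, 12 axoneme genes were higher and 2, Cfap61 and Dnaic2, lower. The part of RNA quality in these differences was not tested.

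**Figure D4:**
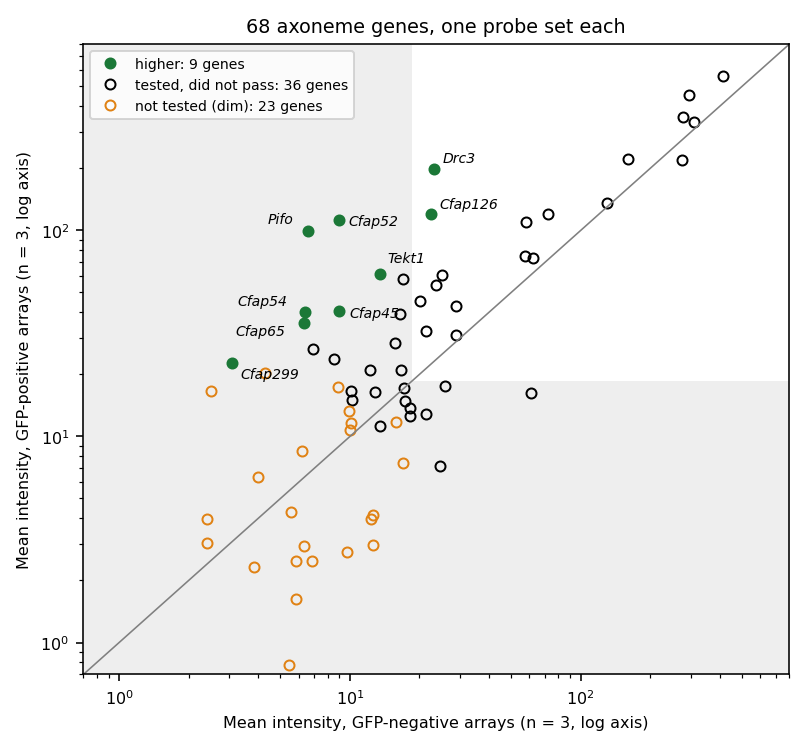
Mean intensity on GFP-positive arrays (y axis, log scale) against GFP-negative arrays (x axis, log scale) for the 68 axoneme genes, 1 probe set each, with the diagonal for equal values and grey bands up to the highest 40th percentile, 18.4. Genes that rose are filled and lie above the diagonal, with Drc3 and Cfap126 the 2 outside the GFP-negative band, and the 23 dim genes lie within the bands, toward the lower left.

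Motile cilium genes outside the symbol rule were listed separately, 57 symbols of which 44 had a probe set and 26 were tested. Of these, 6 were higher (23.1%, against 2.60% of all genes), 0 lower and 20 did not pass, with a median log2 fold change of 0.34. With no filter, 5 of 44 were higher (11.4%, against 1.24% of all genes) and the median was 0.16. Of the 6, Dnajb13, Armc4 and Ttc25 were bright enough only on GFP-positive arrays. Fam183b, a gene of motile cilia, had 222, 103 and 140.1 in GFP-positive and 0.725, 14.5 and 3.65 in GFP-negative cells, and rose by 2.26 ± 0.27 (adjusted p = 0.00463). Dnajb13, a radial spoke protein, had 51.9, 43.7 and 58.6 in GFP-positive and 2.28, 3.30 and 3.19 in GFP-negative cells, and rose by 1.25 ± 0.15 (adjusted p = 0.00427). Nme5, another spoke protein, rose by 1.04 ± 0.22 (adjusted p = 0.0428) and the dynein light chain Dynlrb2 by 1.18 ± 0.21 (adjusted p = 0.0210). The 2 others that rose, Armc4 (0.86 ± 0.15, adjusted p = 0.0217) and Ttc25 (0.77 ± 0.15, adjusted p = 0.0302), encode docking proteins of the outer dynein arm. Their GFP-negative values were between 0.413 and 2.62, under the 40th percentile throughout. With the pool as a block in limma, 8 passed upward (30.8%) and 1, Ttll6, downward, against 8.40% and 6.76% of all genes. The block added Ak7 and Gas8, the Drc4 subunit, to the 6. Without the block Ak7 had 1.33 ± 0.31 (adjusted p = 0.0537; 0.0235 with the block). Gas8 had 0.99 ± 0.34 without it (adjusted p = 0.145; 0.00875 with the block).

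Genes of multiciliated cells, which make many cilia per cell where node cells make 1, were listed as well. Of 11 genes listed, 7 had a probe set and 4 were tested, so nothing can be said of the rest. In limma 0 of the 4 passed, with 1, Ccno, higher at an unadjusted p under 0.05. Ccno had 71.7, 38.0 and 42.2 in GFP-positive and 12.3, 13.2 and 20.8 in GFP-negative cells, and passed only with the block (0.78 ± 0.20, adjusted p = 0.0659; 0.0300 with the block). E2f5, E2f4 and Myb had -0.03, -0.24 and -0.29.

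Markers of other tissues moved with the sort as well. Of 7 lateral mesoderm genes, 6 were lower in GFP-positive cells, with and without the block, against 1.41% of all genes without it and 6.76% with it, with summed intensities of 345 to 575 on GFP-positive and 2238 to 5618 on GFP-negative arrays. Of 8 endothelial and blood genes tested, 3 were lower, and with the block all 8, with sums of 454 to 6063 and 13237 to 27952. Of 7 gut endoderm genes 1 was higher (Foxa3) and 1 lower (Hhex), with sums of 627 to 2597 on GFP-positive and 548 to 1232 on GFP-negative arrays. With the block 3 were higher (Afp, Cldn6 and Foxa3) and 2 lower (Hhex and Hnf4a), against 8.40% and 6.76% of all genes. Of 6 neural plate genes 0 were higher and 1 lower in limma (1 and 3 at an unadjusted p under 0.05), with sums of 1320 to 1943 on GFP-positive and 2620 to 2862 on GFP-negative arrays. With the block 1 was higher (Hes5) and 3 lower (Nkx1-2, Olig3 and Pax6), beside the same 8.40% and 6.76% of all genes. No tested gene of these lists was at 0 on an array. Their part in the axoneme differences was not tested.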

How the data were processed

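The data are 6 one-colour Affymetrix arrays, 3 of GFP-positive and 3 of GFP-negative cells. The authors' deposited intensities were made with GCOS 1.4, per the submitters' processing notes, and each array has a mean of 150 with 2% trimmed at each end. Detection calls were not used here. Precision is limited by having 3 arrays a group. The platform annotation gave gene names. All 115 probe sets matched RefSeq's table by gene identifier, and 0 symbols changed.

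Intensities became log2(value + 32). Probe sets at or above their array's 40th percentile on at least 3 arrays (27821) went into limma 3.58.1 under R 4.3.3, with group as the only term and eBayes shrinking variances along a trend. The brightest kept probe set on average stood for each gene, with Benjamini-Hochberg adjustment over 12628 genes at 0.05; ± is the standard error. Same-numbered arrays came from the same embryos, per the labels, and residuals of each pair correlated (r = 0.542, 0.286 and 0.436; arrays of pools 2 and 3 also correlated across pools, at 0.380 and 0.279), so the pool was fitted as a replicate block beside the main model. The code was tested on simulated data. Members, structures and lists were chosen with earlier results of these data known. Named genes are those that passed in either fit, the 3 largest changes of each structure and a set of well known members. A few others, such as Tekt4 and Cfap97, are named beside a count.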

Additional observations from a re-analysis of the deposited data

How the results depend on the processing

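The count of 9 axoneme genes higher in GFP-positive cells was 6 to 11 under an offset of 16 or 64, quantile or median normalization, a filter on the mean over arrays, probe sets averaged per gene or tested singly, and, chosen after seeing the data, a variance prior over genes alone. It was 5 with no filter and 5 with no variance trend. Over all genes, 328 were higher and 178 lower; with no filter 92 were lower, and with the pool as a replicate block 1061 were higher and 854 lower. Leaving out arrays or pools gave 0 to 18 axoneme genes higher and 0 to 3 lower, and 5 to 2432 of all genes higher and 0 to 2163 lower. Cfap52 passed in 18 of 20 alternatives, Pifo in 17, Drc3 and Cfap126 in 15 each, Tekt1 in 14, Cfap65 in 11, Cfap54 and Cfap45 in 9 each, and Cfap299 in 8 of the 19 that tested it. None of these 9 changed sign in any of them; of the 21 other named and tested genes, Dnaic1 and Rfx3 did, in 2 settings each, and neither passed in any. The cause of these shifts was not tested. Intensities near background limit what can be said of the dim members.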

Other observations

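Of the 33 probe sets of untested genes, 3 (Tekt2 and 2 of Ccdc39) had GFP-positive values wholly above the GFP-negative ones and 3 (Rsph14, Rsph6a and 1 of Rfx2) wholly below; examples were picked after their values were seen. Rsph14, a radial spoke protein, had 5.72, 10.4 and 6.30 on GFP-positive and 10.9, 12.6 and 27.4 on GFP-negative arrays. Tekt2, a tektin, had 18.5, 10.7 and 20.7 on GFP-positive and 3.91, 0.781 and 2.83 on GFP-negative arrays. One probe set of the ruler gene Ccdc39 had 12.0, 9.95 and 4.13 on GFP-positive and 0.622, 0.931 and 0.813 on GFP-negative arrays, and another had 41.3 on the GFP-positive array of pool 1 and at most 10.1 on the other 5. Over the 23 untested genes, intensities ranged from 0.114 to 41.3 with a median of 3.71, at levels where background cannot be told apart from expression.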
